A study of Drosophila melanogaster with 35 samples.

Results

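Of 2181 protein-coding genes on the X chromosome before its rDNA block, 90 carried at least 1 peak of CLAMP iCLIP on their own strand in nuclear fractions of Drosophila cells. CLAMP is a DNA-binding protein with zinc fingers that prefers GA-rich sites. Individual-nucleotide crosslinking and immunoprecipitation (iCLIP) joins a protein to the RNA it touches with ultraviolet light, precipitates the protein and sequences the attached RNA. Members were chosen by having a peak in the chromatin or nucleoplasm list of S2 or Kc cells. The gene Sxl and genes named RpL or RpS were left out, as were peaks lying in small non-coding RNA genes. Because peaks chose the members, numbers of members per list are a description. The rule did not name the gene part of a peak, its place in the transcript or the span of the gene. These are still not independent of the choice. A longer gene has more bases in which a peak can be called, and peaks in small RNA genes were removed by their position.

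The S2 line is male and the Kc line female, both embryonic per the labels. Cells were irradiated at 254 nm and split into chromatin, nucleoplasm and cytoplasm. The 2 nuclear fractions of both lines had 16 CLAMP libraries, 4 for every combination, and 7 controls without antibody, of which Kc chromatin had 1 and the other combinations 2 each. All of these libraries came from irradiated cells, and no genetic change or other agent is named. Each combination of line and fraction is represented by 1 deposited peak list, which leaves no replicate spread to measure, and tests compare lists or gene sets rather than repeated experiments. Peaks of the controls were not used as a background, and whether a given peak marks contact with CLAMP was not tested.

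In Drosophila males the single X is transcribed at a raised rate by the male-specific lethal (MSL) complex, which holds the roX RNAs. CLAMP binds GA-rich sites on the X and helps this complex find it, while it also binds many autosomal sites. In females Sxl protein blocks production of MSL2, so the complex does not form. Messenger RNAs still attached to chromatin hold introns and exons of transcripts being made, and nucleoplasm holds transcripts released from it.

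The lists hold peak positions and no read counts, so depth per library and per peak is unknown. Chromatin of S2 had 1416 peaks and that of Kc 874, while nucleoplasm had 391 in S2 and 546 in Kc. Of the 11 hemocyte markers, genes of the blood cells that both lines resemble, 6 had a peak in S2 chromatin (Hml, Ppn, vkg, LanA, LanB1 and LanB2) and 0 in the other lists. The hemocyte markers Pxn, NimC1, srp, He and Col4a1 had no peak in these lists. The 4 markers of germ line, 4 of muscle and 3 of neuron had 0 peaks in these lists. Even in S2 chromatin only 2.76% of autosomal and 3.35% of X-linked coding genes considered had a peak, so 0 among so few markers says little. Of 3 genes of male dosage compensation (msl-2, roX1 and roX2) 1, roX2, had a peak, in S2 chromatin. Sxl had its peak in Kc nucleoplasm. A peak list shows neither the level nor the absence of a transcript, so this is no test of the cell type.

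The X-linked coding genes with peaks came mostly from the S2 chromatin list. Their transcripts carried 74 peaks there, in 73 genes, against 9 peaks in 9 genes in Kc chromatin. Nucleoplasm added 11 peaks in 11 genes in Kc and 1 peak in S2, in CG3847. As a share of all X-linked coding genes considered, 3.35% had a peak in chromatin of S2 and 0.413% in chromatin of Kc, and 0.0459% and 0.504% in nucleoplasm of S2 and Kc. For the 11671 autosomal coding genes under the same rule the shares were 2.76%, 0.506%, 0.0771% and 0.428% in the same order. Over all 4 lists they were 4.13% for the X and 3.51% for autosomes. Peaks in X members made up 5.23% of the S2 chromatin list (4.18 to 6.51%), 1.03% of the Kc chromatin list (0.543 to 1.95%), 0.256% of the S2 nucleoplasm list (0.0452 to 1.43%) and 2.01% of the Kc nucleoplasm list (1.13 to 3.57%). These are Wilson 95% intervals and cover counting error only. The denominators are whole lists, and of the 826 X peaks in them 649 lay from the rDNA block on. Autosomal coding genes accounted for 369 of the 1416 S2 chromatin peaks and 66 of the 874 from Kc chromatin. For nucleoplasm the counts were 9 of 391 with S2 and 47 of 546 with Kc. The lower share in Kc chromatin was therefore not particular to X members, and a difference in its size was not tested.

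Most members had a single peak. In all, 84 members had 1 peak, 5 had 2 and 1 had 3, and 87 were found in 1 list. The actin gene Act5C was the member with 3 peaks, each in another list. It lay in the 5' UTR in Kc nucleoplasm (X 5900935 to 5900971) and in the 3' UTR in S2 chromatin (5904037 to 5904074) and in Kc chromatin (5904263 to 5904283). The midpoints of the 3' UTR peaks were 218 nt apart, so the lines shared the gene and its 3' UTR but not the position. Act5C has several close relatives in the genome, and UTRs are where actin genes differ most in sequence.

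Besides Act5C, Rala and Rab10 were each found in more than 1 list. Rala encodes a small GTPase of the Ras superfamily that acts in exocytosis. Its CDS held the S2 chromatin peak (X 3708786 to 3708811) and its 3' UTR the Kc nucleoplasm peak (3705829 to 3705864), with midpoints 2952 nt apart. Rab10 encodes a small GTPase of vesicle traffic. Its CDS peaks in Kc chromatin (X 20252414 to 20252438) and Kc nucleoplasm (20252415 to 20252439) shared 24 nt, and this was the only pair of member peaks that overlapped between lists. Both were 25 nt wide, with midpoints 11 and 10 nt from an annotated splice site.

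There were 74 members in S2 and 18 in Kc, and the 2 genes in both, Act5C and Rala, made up 2.70% of the members in S2 and 11.1% of those in Kc. On autosomes 22 coding genes were in both lines, 6.73% of the 327 in S2 and 21.0% of the 105 in Kc, and the difference from the X was not tested. No separation of the lines is read from these counts. The lists differ in size and the depth behind them is unknown, so a gene missing from a list is not shown to lack the contact. Among peaks of at least 30 nt, 1 gene remained in both lines, and with strand ignored 5 were.

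The genes pcx, His3.3B and nocte had 2 peaks each in S2 chromatin, in different parts of the transcript. The gene pcx encodes pecanex, a membrane protein of the Notch pathway. Its peaks lay in the CDS (X 2229085 to 2229112) and in the 3' UTR (2237902 to 2237965), and the latter was 64 nt wide with its midpoint 28 nt before an annotated transcript end. His3.3B encodes the replication-independent histone H3.3, with a CDS peak (9154610 to 9154631) and a 3' UTR peak (9153787 to 9153826) whose midpoints were 814 nt apart. A second gene, His3.3A, encodes the same protein, and the sources used here do not say how reads matching several places were treated. The gene nocte, which acts in temperature entrainment of the circadian clock, had a 5' UTR peak (10474537 to 10474558) and a 3' UTR peak (10463867 to 10463902), with midpoints 128 nt after an annotated start and 66 nt before an end.

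The members' peaks lay mainly in mature transcript sequence. Of 95 peaks, 41 were in CDS, 29 in 3' UTRs, 8 in 5' UTRs and 17 in introns. In S2 chromatin CDS held 33 of 74 peaks, 44.6% (33.8 to 55.9%), and 3' UTRs 25, 33.8% (24.0 to 45.1%). Introns held 9, 12.2% (6.53 to 21.5%), and 5' UTRs 7, 9.46% (4.66 to 18.3%). Exonic parts together held 78 of the 95 peaks.

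**Figure D1:**
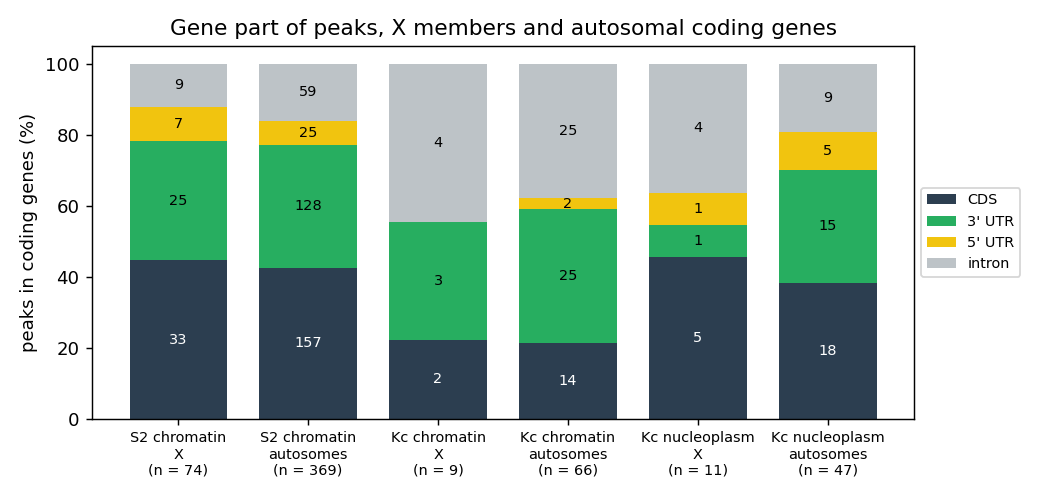
Gene part of the peaks in X members and in autosomal coding genes. Bars give the percent of peaks in coding genes of a list (y axis) for X members and autosomes, numbers in the bars are peaks, and S2 nucleoplasm is not drawn because it had 1 peak in X members. In S2 chromatin the X and autosome bars are nearly alike, and in Kc chromatin introns take 4 of 9 X peaks.

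No difference in gene part was detected between X members and autosomal coding genes in S2 chromatin. On autosomes 157 of 369 peaks were in CDS (42.5%), 128 in 3' UTRs (34.7%), 25 in 5' UTRs (6.78%) and 59 in introns (16.0%). The odds ratio of the X against autosomes was 1.09 for CDS (0.661 to 1.80) and 0.968 for 3' UTRs (0.574 to 1.63). It was 1.50 for 5' UTRs (0.638 to 3.53) and 0.757 for introns (0.363 to 1.58). Each had an adjusted p of 1 by a two-sided Fisher's exact test with Benjamini-Hochberg adjustment over 13 tests. Each of the 4 odds ratios crossed 1 to the other side among peaks of at least 30 nt, to 0.941 for CDS, 1.24 for 3' UTRs, 0.647 for 5' UTRs and 1.12 for introns. The intervals leave room for differences of up to 1.80-fold in the odds of a CDS peak and 3.53-fold for a 5' UTR peak. For introns they reach down to an odds ratio of 0.363.

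In Kc chromatin introns held 4 of the 9 peaks in X members, 44.4% (18.9 to 73.3%), in the genes CHES-1-like, rdgA, Hk and HDAC4. Against the 9 of 74 in S2 chromatin the odds ratio was 0.177 (0.0429 to 0.733), with a Fisher's exact p of 0.0302 that did not pass after adjustment (0.393). The rdgA peak lay in a transposable element insertion. Without peaks in such insertions introns held 3 peaks in Kc chromatin and 8 in S2 chromatin. The odds ratio was then 0.204, with an adjusted Fisher's exact p of 0.940. On autosomes 25 of 66 Kc chromatin peaks were intronic (37.9%), against 59 of 369 in S2 chromatin. CDS held 2 of 9 (22.2%; odds ratio of S2 against Kc 2.42, 0.539 to 10.9, adjusted Fisher's exact p = 1) and 3' UTRs 3 of 9 (33.3%; 0.957, 0.240 to 3.82, adjusted Fisher's exact p = 1).

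In Kc nucleoplasm CDS held 5 of 11 peaks, introns 4, and each UTR 1. On autosomes CDS held 18 of 47 peaks there, introns 9, 3' UTRs 15 and 5' UTRs 5, and the difference was not tested. For X members the odds ratios of Kc chromatin against Kc nucleoplasm were 0.394 for CDS (0.0634 to 2.45) and 3.77 for 3' UTRs (0.440 to 32.3). For introns the odds ratio was 1.36 (0.247 to 7.53), and each of these had an adjusted Fisher's exact p of 1. Lists this small could show only very large differences.

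In S2 chromatin member peaks were 20 to 112 nt wide with a median of 32 nt, and 44 of 74 (59.5%) were at least 30 nt. Autosomal peaks had the same median of 32 nt, and 209 of 369 (56.6%) were at least 30 nt (odds ratio 1.12, 0.675 to 1.85, adjusted Fisher's exact p = 1). The median over X members was 39 nt in Kc chromatin (21 to 48 nt) and 35 nt in Kc nucleoplasm (22 to 43 nt). Autosomal peaks had medians of 40.5 nt (22 to 163 nt) and 32 nt (21 to 133 nt) there. In Kc chromatin 6 of 9 member peaks and 59 of 66 autosomal peaks were at least 30 nt wide, and in Kc nucleoplasm 6 of 11 and 27 of 47, which was not tested.

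**Figure D2:**
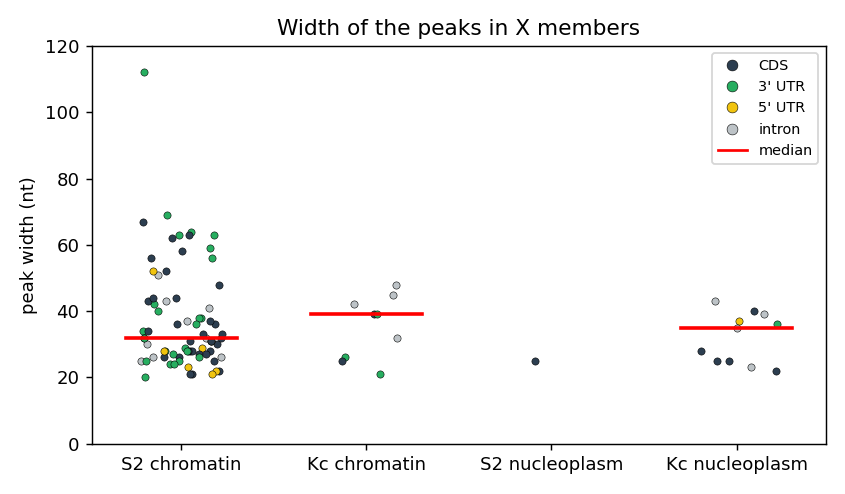
Width in nt of each peak in an X member (y axis) by list (x axis), coloured by gene part, with the median as a red line where a list has more than 1 peak. S2 chromatin peaks reach 112 nt in eIF4H1, while the widest Kc peak is 48 nt.

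Lists of known genes were drawn up by function with earlier results of these data known. Over all of them 16.8% of X-linked genes were members, against 4.13% of X-linked coding genes, and nothing is read from that gap. Of the 22 X-linked genes in a list for chromatin and transcription, 4 were members (18.2%): fs(1)h, Myc, HDAC4 and Tlk. The gene fs(1)h, which encodes a BET bromodomain protein, had a 63 nt peak in its 3' UTR in S2 chromatin (X 8049882 to 8049944). Other S2 chromatin members outside that list were Trf2, a TBP-related factor (3' UTR, 8432068 to 8432094), and Caf1-180, the large subunit of chromatin assembly factor 1 (CDS, 8604492 to 8604527). The TEAD transcription factor gene sd had a CDS peak (15824168 to 15824200) and the corepressor gene Smr an intron peak (12716225 to 12716275). Rtel1, named for a helicase that regulates telomere length, had a 3' UTR peak (5751683 to 5751713), and IntS6, a subunit of the Integrator complex that cleaves nascent RNA, a CDS peak (5742411 to 5742431). The gene mab-21 had a 3' UTR peak (6008494 to 6008518).

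Regulators of this kind in the Kc lists were grouped by hand. In Kc chromatin HDAC4, a class II histone deacetylase (X 13284580 to 13284624), and the forkhead factor CHES-1-like (7695623 to 7695670) had intron peaks. In Kc nucleoplasm the kinase gene Tlk (3750419 to 3750457) and HP5 (11457861 to 11457883) had intron peaks. Myc, the growth-promoting transcription factor, had a CDS peak (3376152 to 3376176), which also overlapped the annotated lncRNA:CR44999 on the same strand. Where a peak lies in 2 genes on a strand, the list cannot say which transcript gave it.

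Cytoskeleton and adhesion genes had 5 members of 24 in the list (20.8%, beside 16.8% over all the lists). They were Act5C, sqh, Moe, flw and mys, all with a peak in S2 chromatin. Their peaks lay in the 5' UTR for sqh, the regulatory light chain of non-muscle myosin II (X 6224002 to 6224030), and in the CDS for Moe, which links actin to the membrane (8874302 to 8874331). Those of flw, a catalytic subunit of protein phosphatase 1 that acts on myosin (10407904 to 10407966), and mys, an integrin beta subunit (8069339 to 8069376), lay in the 3' UTR. Outside the list, the septate junction claudin gene pck had a 3' UTR peak (1472082 to 1472110), the polarity gene par-6 a CDS peak (17705183 to 17705215) and kek5, a transmembrane protein with leucine-rich repeats, a CDS peak of 63 nt (19464953 to 19465015). RhoGAPp190 had a CDS peak in Kc nucleoplasm (17647089 to 17647110). The 5' UTR of bves carried a 52 nt peak (21060519 to 21060570) in S2 chromatin.

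Some S2 chromatin members encode proteins of the endoplasmic reticulum and the secretory route, described together after the members were known and with no test. Hsc70-3, the chaperone BiP, had a CDS peak (X 11803032 to 11803068). Ost48 (9157700 to 9157743) and Stt3A (21051464 to 21051484), both of the enzyme that attaches N-glycans, also had CDS peaks, as did GCS2alpha, the catalytic subunit of the glycan-trimming glucosidase II (21603608 to 21603638). Chsy, a chondroitin synthase of the Golgi, had one at 15586631 to 15586673. The Vap33 peak, in a protein that tethers the endoplasmic reticulum to other membranes, was in the 3' UTR (3953338 to 3953362). Grp170, another chaperone of the endoplasmic reticulum, had a CDS peak in Kc nucleoplasm (2273475 to 2273502).

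Genes of protein folding and turnover had peaks in CDS and in UTRs. The chaperonin subunit genes CCT2 and CCT6 had S2 chromatin peaks in the CDS (X 9092339 to 9092372) and in the 5' UTR (15746729 to 15746756). Cyp1, a cyclophilin (16318213 to 16318244), and ben, a ubiquitin-conjugating enzyme (13998476 to 13998503), had CDS peaks. Members of protease families were CalpC with a CDS peak (16326290 to 16326320), sol with a 3' UTR peak (21357757 to 21357788) and Nrd1 with a CDS peak (11865546 to 11865570), and Vps4, the ATPase that recycles the ESCRT machinery, had a CDS peak (17909384 to 17909435). In Kc chromatin the polyubiquitin gene Ubi-p5E had a CDS peak (6278067 to 6278105) and the carboxypeptidase gene svr a 3' UTR peak (508725 to 508750). Ubi-p5E consists of near-identical ubiquitin repeats and has a relative elsewhere in the genome, so the position of its peak is uncertain. Of the 7 X-linked genes in the folding and turnover list, 2 were members (28.6%, beside 16.8% over all the lists), Hsc70-3 and Ubi-p5E.

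Of 14 X-linked genes in the list for RNA binding, splicing, export and decay, 2 were members (14.3%, beside 16.8% over all the lists of known genes used here). Imp, a protein that binds and localises mRNAs, had a 59 nt 3' UTR peak in S2 chromatin (X 10789846 to 10789904), and Tis11, which promotes decay of AU-rich mRNAs, a CDS peak near the start of its coding sequence in Kc nucleoplasm (12660810 to 12660849), at 3.52% of its length. Of 5 translation genes in a list the only member (20%) was eIF5, the initiation factor that triggers GTP hydrolysis, with a 5' UTR peak (15991898 to 15991928) in S2 chromatin that lay equally in CG46312 on the same strand. The initiation factor gene eIF4H1, not in the list, held the widest peak, 112 nt in its 3' UTR (16453007 to 16453118). Tcs4, an enzyme of the tRNA modification t6A, had a CDS peak of 67 nt (19701220 to 19701286).

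Signalling genes had 4 members of 17 in the list (23.5%, beside 16.8% over all the lists), sgg, Ran, fog and Rala. The kinase gene sgg, the fly GSK3, and fog, a secreted ligand of gastrulation, had S2 chromatin peaks in introns (X 2662397 to 2662437 and 22844956 to 22844998). Ran, the GTPase of nuclear transport, had a CDS peak (11145676 to 11145707). Neuronal signalling genes outside the list also had intron peaks, in S2 chromatin for the adenylyl cyclase gene rut (14823595 to 14823620), for Tomosyn, which restrains vesicle fusion (12649910 to 12649946), and for rg, an anchor of protein kinase A (5110955 to 5110980). The rg peak lay in CG15465 as well, which has the same strand. In Kc chromatin the diacylglycerol kinase gene rdgA (8922725 to 8922756) and the potassium channel subunit gene Hk (10261960 to 10262001) had intron peaks. CARPB had one in Kc nucleoplasm (9790879 to 9790913).

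None of the 18 X-linked genes in the list for metabolism, transport and mitochondria was a member. Metabolic genes outside it did carry S2 chromatin peaks. They were Gclc, which makes the first intermediate of glutathione (CDS, X 8104983 to 8105009), the AMP deaminase gene AMPdeam (3' UTR, 13830746 to 13830765), the phosphatidylinositol synthase gene Pis (3' UTR, 15701953 to 15701976) and the copper pump gene ATP7 (CDS, 11861774 to 11861821). The selenoprotein gene BthD had a 3' UTR peak (13613176 to 13613203). In Kc chromatin mgl, the endocytic receptor Megalin, had a 3' UTR peak (9359428 to 9359466). Over all 7 lists 18 of 107 X-linked genes were members (16.8%), against 4.13% of X-linked coding genes. The lists were drawn up from well-known genes with earlier results of these data known, so nothing is read from that gap.

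The other named members were all from S2 chromatin. Peaks in the 3' UTR were found for Unc-76 (X 2092902 to 2092925), Pat1 (6596476 to 6596509), l(1)G0320 (9551626 to 9551653), Karl (11792005 to 11792046) and mthl1 (16649508 to 16649533). Peaks in the 5' UTR were found for Gip (10329753 to 10329775) and X11L (17599643 to 17599663). The remaining 17 members carry only a CG number, and no function is given to them here. In S2 chromatin, CDS peaks lay in CG11436 (4551547 to 4551574), CG2260 (8120286 to 8120321), CG7766 (9094648 to 9094703), CG17841 (10368487 to 10368514), CG12177 (13678525 to 13678550), CG9240 (15700663 to 15700689) and CG9281 (15707551 to 15707594). The CG11436 peak also lay in lncRNA:CR32773 on the same strand. Intron peaks lay in CG2841 (2352003 to 2352027), CG12065 (8586515 to 8586546) and CG6891 (18779210 to 18779239). CG15465 and CG46312 had the intron and 5' UTR peaks they share with rg and eIF5. The widest were a 3' UTR peak of CG9132 at 69 nt (16798355 to 16798423), a CDS peak of CG34408 at 62 nt (10224933 to 10224994) and a CDS peak of CG8188 at 58 nt (17701614 to 17701671). CG3847 was the S2 nucleoplasm member, with a CDS peak (6347843 to 6347867), and CG12535 had an intron peak in Kc nucleoplasm (3418998 to 3419040).

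CDS peaks were spread along the coding sequence in S2 chromatin. With the CDS cut into 3 equal lengths, 8 of 33 midpoints lay in the first, 12 in the middle and 13 in the last, with a median of 49.2% of the way from start to stop. They ran from 7.76% in GCS2alpha to 97.6% in CCT2. The 157 autosomal CDS peaks had a median of 49.8% and fell 51, 54 and 52 in the same order. The distance to the nearest annotated splice site had a median of 252 nt for the 32 S2 chromatin CDS peaks in genes with an intron, against 143 nt for 154 on autosomes. Within 100 nt of a splice site lay 6 of the 32 and 60 of the 154, a difference that was seen after the data were examined and was not tested.

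**Figure D3:**
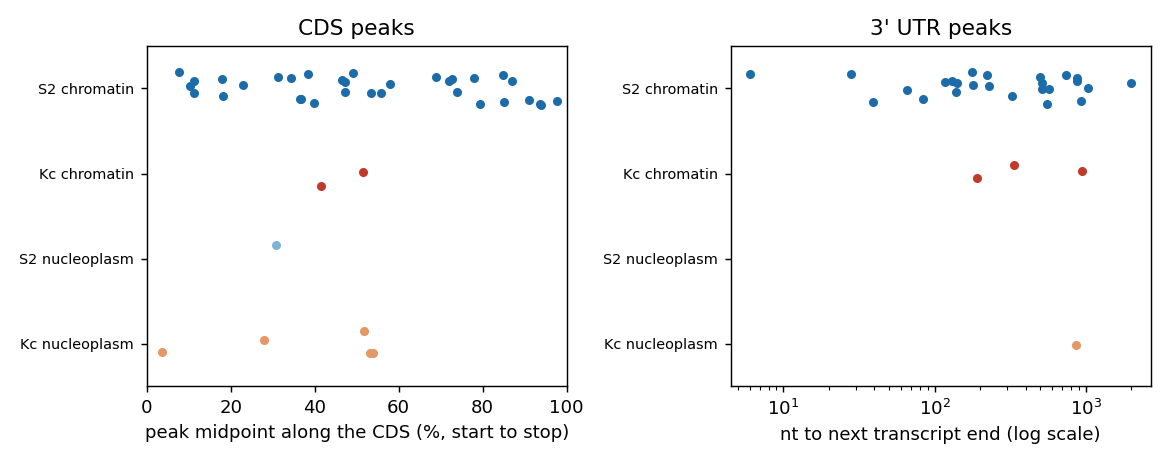
Place of peaks within the transcript, 1 point a peak, by list (y axis). The left panel gives the midpoint as percent along the CDS and the right panel the nt to the next annotated transcript end on a log scale. S2 chromatin CDS peaks cover the range from 7.76 to 97.6%, and 3' UTR peaks lie from 6 to 2006 nt before an end.

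In 3' UTRs the S2 chromatin peaks lay a median of 228 nt before the nearest annotated transcript end, from 6 nt in AMPdeam to 2006 nt in Imp, and 5 of 25 lay within 100 nt of an end. The median of the 129 pairs of an autosomal gene and a 3' UTR peak was 275 nt, with 25 within 100 nt. Counted from the upstream edge of the 3' UTR segment that held them, the 25 midpoints lay at least 144 nt in, with a median of 422 nt. On autosomes 18 of 129 were within 100 nt of that edge, with a median of 497 nt, and the difference was not tested. In 5' UTRs the distance from a transcript start ran from 45 nt in X11L to 5998 nt in bves over 8 pairs of a gene and a peak.

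Intron peaks lay mostly in long introns and long genes. Of the 17, 15 were in introns over 1000 nt, 5 in the first intron, 9 in intron 2 or 3 and 3 in a later one, counted in the transcript with most introns. The shortest intron was that of CG12065, 306 nt, and its peak midpoint was 21 nt from a splice site. The longest was the intron of rdgA, 96608 nt. In S2 chromatin the introns had a median length of 8722.5 nt over 10 pairs of a gene and a peak. On autosomes it was much the same, 8678 nt over 64 pairs. A longer intron has more bases in which a peak can be called. A transposable element insertion on the same strand held 3 of the 17 peaks, a copia in rut, a jockey in rdgA and a 3S18 in CG12535, and reads from other copies of such elements cannot be told apart from reads of the intron. Without these peaks S2 chromatin had 8 intron peaks, Kc chromatin 3 and Kc nucleoplasm 3.

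Members had longer spans at the median than X-linked coding genes as a whole. Their median span was 6896.5 nt against 2540 nt for all 2181, and their exons summed to 3904.5 nt against 1996 nt at the median. The 3' UTR bases had a median of 1389.5 nt against 324 nt. Members with an intron peak had the longest span, with a median of 34737 nt, and those with a CDS peak a median of 4157.5 nt. By list the median was 6179 nt in S2 chromatin, 22946 nt in Kc chromatin and 15026 nt in Kc nucleoplasm. A longer gene has more bases in which a peak can be called, and how strongly the genes are expressed in these cells was not measured here.

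**Figure D4:**
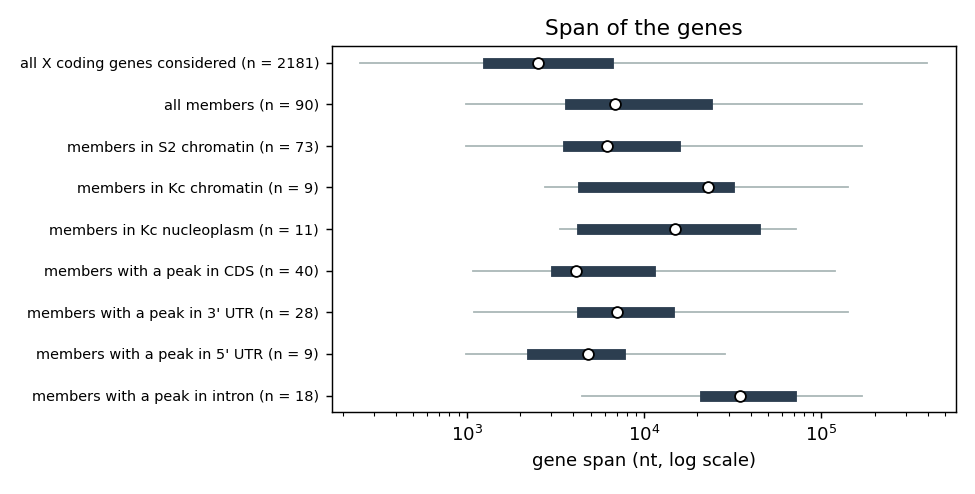
Gene span in nt on a log scale (x axis) for all X-linked coding genes and for members by list and gene part (y axis). Thin lines run from the lowest to the highest value, thick lines run between the quartiles and points are medians. The median is 2540 nt for all genes, 6896.5 nt for members and 34737 nt for members with an intron peak.

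Along the X, members were found from svr, which begins at 496446, to fog, at 22824317. With the X before the rDNA block cut into 5 equal stretches, 13 of 419 coding genes were members in the first (3.10%), 25 of 469 in the second (5.33%) and 23 of 432 in the third (5.32%). The fourth had 20 of 502 (3.98%) and the fifth 9 of 359 (2.51%). S2 chromatin members numbered 8, 21, 17, 19 and 8 in this order. Kc chromatin had 1, 4, 3, 0 and 1, and Kc nucleoplasm 5, 1, 3, 1 and 1. With 9 and 11 genes these are descriptions.

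**Figure D5:**
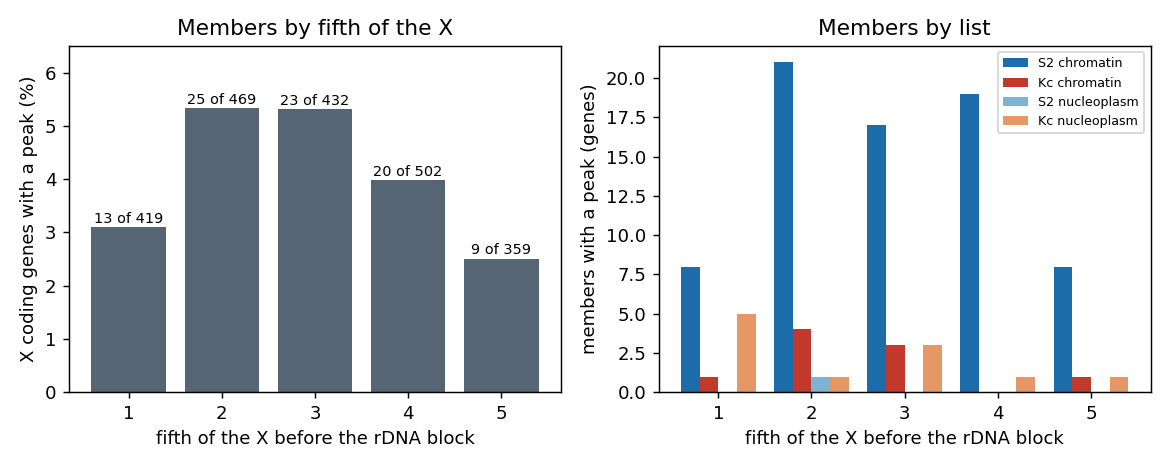
X members in 5 equal stretches of the X before the rDNA block (x axis). The left panel gives members as percent of the coding genes in each stretch, with both numbers above the bar, and the right panel the number of members with a peak in each list. The share is highest in stretches 2 and 3, at 5.33 and 5.32%, and lowest in stretch 5, at 2.51%.

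Neighbouring peaks were a median of 142527 nt apart, and the widest stretch without a member peak was 1241317 nt, between GCS2alpha and fog. Of the 90, 41 formed 19 runs in which gene spans lay within 10 kb of each other or overlapped. In 2 of the runs, CG15465 with rg and eIF5 with CG46312, a single peak lay in both genes. How often coding genes of the X in general lie so close was not computed, so the count is a description. Runs of 3 included CG9240, Pis and CG9281 (X 15700172 to 15710539), which lie on the minus strand, and Tomosyn, Tis11 and Smr (12631605 to 12742618), with members of both lines and strands. The run of CG9240, Pis and CG9281 spans little more than 10 kb and had all 3 peaks in S2 chromatin. Members were on the plus strand in 43 cases and on the minus strand in 47. On the X as a whole 1064 coding genes were on the plus strand, beside 2181 considered here. A gene on the other strand lay under 5 of the peaks, those of CG12535 and fog in introns and 1 each of pcx, nocte and BthD in UTRs.

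The genes of the roX RNAs, which are also sites where the MSL complex first binds the X, are landmarks near which members can be placed. Within 100 kb of roX1 (X 3857230 to 3862697) 2 of 18 coding genes were members, Tlk with an intron peak in Kc nucleoplasm and Vap33 with a 3' UTR peak in S2 chromatin. Within 100 kb of roX2 (X 11579065 to 11580432) 0 of 25 were, and the nearest member was HP5, 119838 nt away, from Kc nucleoplasm. Around Sxl (X 7074550 to 7098053) 0 of 18 were. Over the whole X 4.13% of coding genes were members, and with so few genes in these windows nothing is read from the counts.

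At the borders of the rule, no gene turned on a few bases. The annotation holds 0 coding genes on the X from the start of the rDNA block on, and the last member, fog, began at 22824317. Each peak lay wholly inside the span of its gene, and 0 peaks on the X ended within 100 nt outside a coding gene on its strand without touching one. The coding genes left out because their peaks lay in a small RNA gene were Bx, ec, Abca3 and DIP-alpha. The peaks of Bx lay in tRNA:Pro-CGG-2-1 in S2 chromatin (X 18565796 to 18565835) and Kc nucleoplasm (18565797 to 18565835), that of ec in tRNA:Gln-CTG-2-1 and that of Abca3 in tRNA:Tyr-GTA-1-1. DIP-alpha held 3 S2 chromatin peaks, all in lncRNA:CR34335, which counts as small here because it is under 500 nt. Ribosomal protein genes left out were RpL17, RpL37-1, RpS10b, RpS14a and RpS5a.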

How the data were processed

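Per the labels' protocols, 31 PCR cycles were used and reads were handled with the CLIP-Explorer workflow. STAR 2.5.2b-2, cutadapt 3.5, UMI-tools and FastQC are named in the submitters' processing notes, with build dm6. The sources used here do not give the peak caller, its threshold or the libraries behind a list. The label of each CLAMP library names its list except for 1 of the 4 in Kc nucleoplasm. Labels of controls without antibody also name the list, for 1 of 2 in S2 chromatin and 1 of 2 in S2 nucleoplasm. In Kc this held for 1 of 1 in chromatin and 1 of 2 in nucleoplasm. Whether controls entered a list is therefore not known. The deposited peak coordinates were used, turned to 1-based. The deposited score was 0 in every peak and was not used.

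Genes came from Ensembl release 115 (BDGP6, the dm6 assembly). A gene counted with an overlap of 1 nt on its strand. Peaks with the midpoint in a tRNA, snRNA, snoRNA or other non-coding RNA under 500 nt were left out. The gene part was read at the midpoint, with 5' UTR before CDS before 3' UTR before intron. Distances between midpoints and annotated ends or splice sites are genomic. Shares were compared by two-sided Fisher's exact tests, adjusted over 13 tests, with odds ratios after adding 0.5 and Woolf intervals. Python 3.11.15, numpy 2.4.6, scipy 1.17.1 and matplotlib 3.10.9 were used, and peak placement was tested on simulated peaks. Members and lists were chosen with earlier results of these data known. Every member could be named, though 1 is not reported here, and positions are given for members with more than 1 peak or list, those in the smaller lists and the widest. Tests treat peaks as independent. The Kc cytoplasm list was not used.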

Additional observations from a re-analysis of the deposited data

How the results depend on the processing

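Gene part results passed the adjusted test under none of the 11 settings tried, with a lowest adjusted Fisher's exact p of 0.393 as reported and 0.142 under an alternative. Numbers of members moved by over 1.5 times with peaks of at least 30 nt alone, to 56 in all, 45 and 0 in chromatin and nucleoplasm of S2, 6 in nucleoplasm of Kc and 1 in both lines, and with strand ignored the number in both lines was 5. Odds ratios crossed 1 to the other side in 9 recomputed values. At 30 nt or more, X against autosomes in S2 chromatin gave 0.941 for CDS, 1.24 for 3' UTRs, 0.647 for 5' UTRs and 1.12 for introns, and S2 against Kc chromatin gave 1.93 for 3' UTRs and 0.765 for 5' UTRs. With strand ignored the intron odds ratio of X against autosomes was 1.01 and the 3' UTR odds ratio of S2 against Kc chromatin 1.26, and without peaks in more than 1 gene the 3' UTR odds ratio of X against autosomes was 1.003. The cause was not tested. For Kc chromatin against Kc nucleoplasm the odds ratios of CDS and 3' UTRs were 1 at 30 nt or more, with no direction left. Of 190 recomputed values 175, these included, stayed on their side of the test without crossing to the other direction, or for numbers of members within 1.5 times. Leaving out transposable element insertions was chosen after seeing the data. Planned comparisons of GAGA and TCTC motifs were not run, because no genome sequence was used. No paired analysis was possible because each line and fraction has 1 list, and for the same reason no replicate could be left out.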
